A study of Phascolarctos cinereus with 3 samples.

Results

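Long scaffolds of the koala genome assembly that carried both centromere markers were examined by chromatin immunoprecipitation followed by sequencing (ChIP-seq). The known extent of a scaffold was taken as the end of its last listed peak of either antibody, a lower bound of its length. Scaffolds whose known extent was 1 Mb or more and that held at least 1 peak of each antibody were chosen, so the presence of both markers on them is not a finding. There were 31 such scaffolds among the 346 that held a peak. On them lay 530 of the 2412 peaks in the CENP-A list and 141 of the 758 in the CREST list. The smallest chosen scaffold was scaf00375, with a known extent of 1139371 bp and 4 peaks of each list. The longest scaffold with both lists that fell short was scaf00385, with 910662 bp, 18 CENP-A and 17 CREST peaks.

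The chromatin came from koala (Phascolarctos cinereus) endometrium, the inner layer of the uterus, and was sheared from 100000 cells for each immunoprecipitation. One library was made with 10 µg of a custom rabbit antibody to the CENP-A of another marsupial, the tammar wallaby (Macropus eugenii), and one with 10 µg of CREST serum, a human anti-centromere IgG. Each was built from 1 ng of DNA. A library of input chromatin from the same tissue is not analysed here, and the negative control antibodies yielded no DNA that could be measured. The number of animals is not stated in the labels. Each list is 1 library of unknown depth, so no value below has a replicate check and no test was made. Intervals are 95% intervals that cover counting error only and treat peaks as independent.

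CENP-A is a variant of histone H3 that replaces it in the nucleosomes of active centromeres, where the kinetochore assembles and attaches chromosomes to the spindle. CREST sera come from people with an autoimmune disease and recognise a mixture of centromere proteins that can include CENP-A itself, CENP-B and CENP-C, so the pair of reagents need not report on separate proteins. In most mammals CENP-A occupies long arrays of repeated sequence, which genome assemblies often break or leave out.

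On these 31 scaffolds the markers met in a small number of short segments. A CREST peak overlapped 62 of 530 CENP-A peaks (11.7%, Wilson interval 9.23 to 14.7%), against 22.4% of CENP-A peaks over all scaffolds. A CENP-A peak overlapped 64 of 141 CREST peaks (45.4%, 37.4 to 53.6%), against 74.8% over all scaffolds. The choice of scaffolds used these same positions, so nothing is read from either contrast. After peaks were joined across gaps of up to 10 kb, whatever their list, 45 clusters held at least 1 peak of each list and are called shared segments. They lay on 30 of the 31 scaffolds and summed to 278196 bp, which was 0.0930% of the 299 Mb of known extent. They held 80 CENP-A peaks (15.1%, 12.3 to 18.4%) and 75 CREST peaks (53.2%, 45.0 to 61.2%). By bases they held 33.1% of the CENP-A and 70.0% of the CREST peak area on these scaffolds.

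Most scaffolds had 1 shared segment (20 scaffolds), 7 had 2, 1 had 3 and 2 had 4. The exception without any was scaf00022, with a known extent of 21.2 Mb, 27 CENP-A and 4 CREST peaks. Its CREST peaks were 324, 287, 785 and 296 bp wide, and the one nearest to a CENP-A peak lay 23959 bp away. With joining at 50 kb all 31 scaffolds had a shared segment, this one included.

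**Figure D1:**
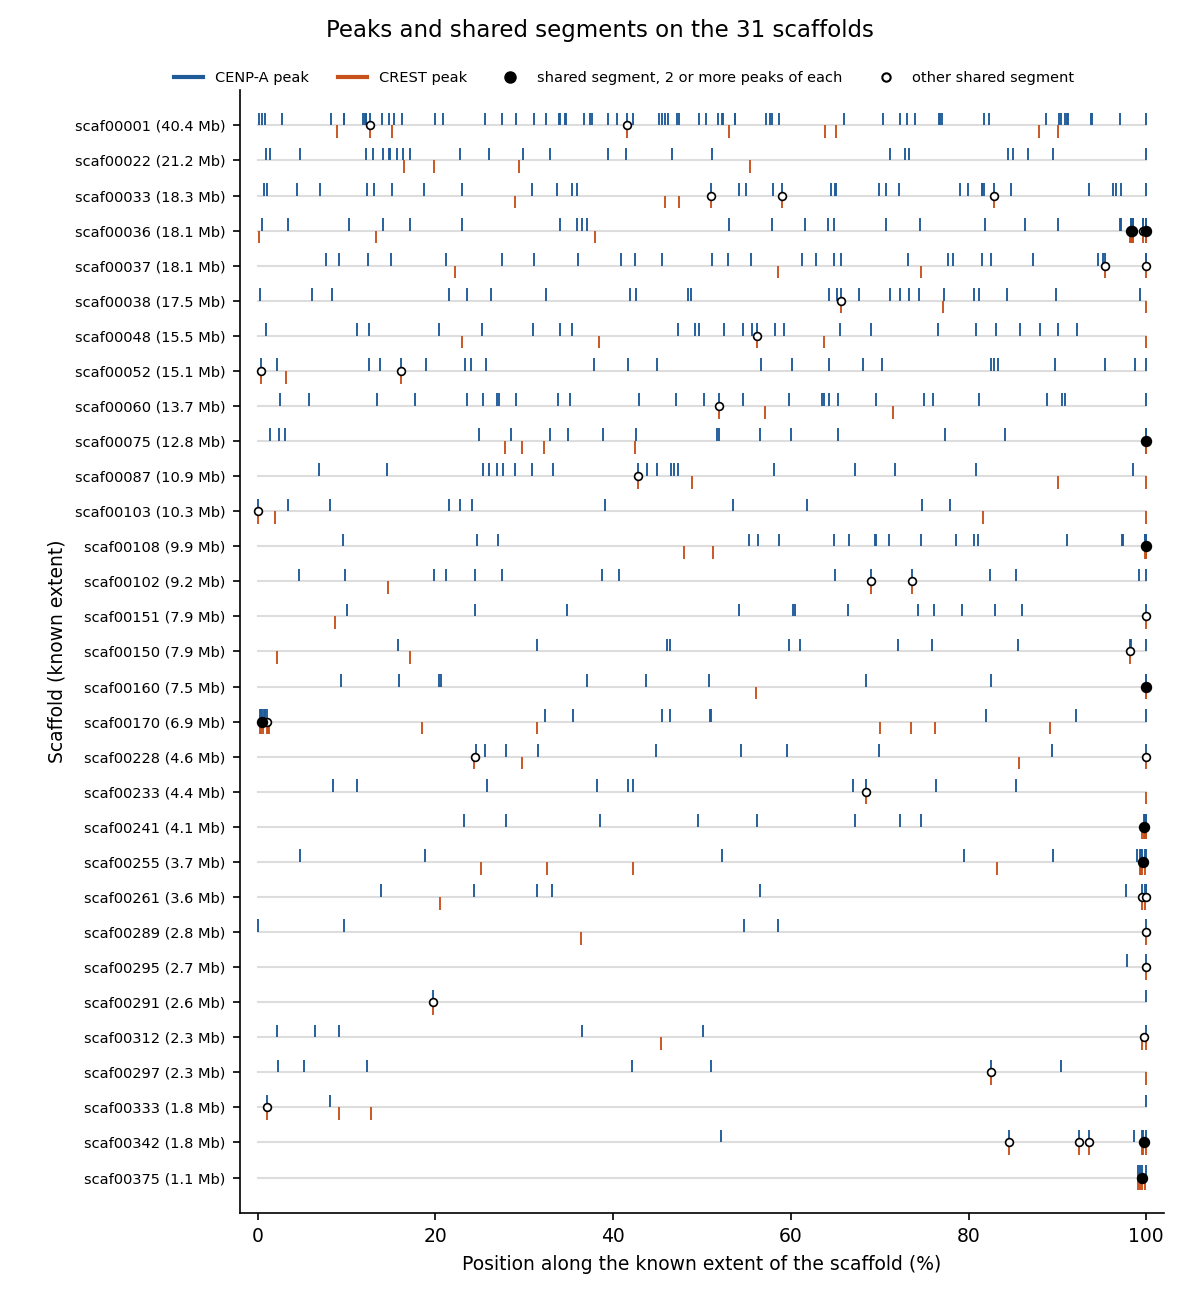
Each row is 1 of the 31 scaffolds, ordered by known extent, and the x axis gives the position along that extent in percent. Blue ticks are CENP-A peaks and orange ticks are CREST peaks. Filled circles mark the 11 shared segments with at least 2 peaks of each list and open circles the other 34. CENP-A ticks are spread along most scaffolds, and 8 of the 11 filled circles belong to segments that reach the right-hand end, with 2 more of scaf00036 close to it.

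Shared segments were of unequal make-up. Of the 45, 28 consisted of a single peak of each list, 6 held several peaks of one list and 1 of the other, and 11 held at least 2 peaks of each. The 28 simple segments had a median length of 841 bp (range 335 to 9777 bp), and their peaks shared 24971 bp. In 2 of them, on scaf00033 and scaf00228, the peaks were neighbours without common bases. The 11 larger segments, on 9 scaffolds, were 6056 to 41859 bp long with a median of 13651 bp. They held 41 CENP-A and 39 CREST peaks and 43587 shared bp, or 59.2% of the 73576 bp shared on all the scaffolds.

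The segment with the most shared bases was on scaf00255, from position 3672586 to 3699027 of a known extent of 3699027 bp. Its CENP-A peaks were 3536, 402, 1537, 8861 and 847 bp wide, and its CREST peaks 3139, 296, 1504 and 10827 bp. The first 3 peaks of each list matched one to one, with starts 23 to 56 bp apart. The CREST peak of 10827 bp (3688201 to 3699027) overlapped 2 CENP-A peaks (3687657 to 3696517 and 3697587 to 3698433). In all 14103 bp were shared, which was 92.9% of the CENP-A and 89.5% of the CREST bases in the segment. These were also the widest peaks of either list on the 31 scaffolds.

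Scaf00036 carried the most CREST peaks, 15, beside 33 CENP-A peaks on 18.1 Mb, and 12 of the 15 lay in 4 shared segments near its known end. Segments with several peaks of each list ran from 17821907 to 17841390, from 17852392 to 17873690 and from 18133200 to 18145298, the last position known. A smaller one, with 2 CENP-A and 1 CREST peak, ran from 18072410 to 18081933. The second of these held 5391 shared bp, the most after scaf00255, and CENP-A spanned interruptions of CREST there. A CENP-A peak of 3914 bp (17864165 to 17868078) covered CREST peaks of 1014 and 1569 bp. CREST bases in this segment were nearly all inside CENP-A peaks (99.5%), while 70.9% of its CENP-A bases were inside CREST peaks. The same held at the known end, where 97.9% of the CREST but 43.7% of the CENP-A bases were shared. The other 3 CREST peaks of this scaffold measured 257 to 513 bp and lay outside the segments.

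Scaf00342 (1.77 Mb) also had 4 shared segments, and all 6 of its CREST peaks overlapped CENP-A. The one at the known end (1764870 to 1774498) held 3 peaks of each list and shared 3689 bp. Its CENP-A peaks of 463, 2841 and 604 bp matched CREST peaks of 349, 3107 and 556 bp one to one. Pairs of single peaks lay at 1499710 to 1501062, 1639239 to 1640519 and 1659481 to 1660390. On scaf00160 the segment from 7487142 to 7493327 likewise held 3 matched pairs, with CENP-A widths of 541, 351 and 2825 bp and CREST widths of 485, 267 and 2626 bp, and every CREST base there lay in a CENP-A peak. On scaf00241 the segment from 4098093 to 4116490 held 4 CENP-A and 5 CREST peaks, all 5 CREST peaks of that scaffold, of which 4 overlapped.

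On scaf00375 all 8 peaks of the scaffold lay between 1127825 and 1139371, leaving the 1127824 bp before them without a listed peak. Its 4 CENP-A peaks (1679, 2209, 1375 and 1577 bp) each met 1 CREST peak (689, 851, 2298 and 1296 bp), with 48.6% of CENP-A and 64.8% of CREST bases in common. The segment on scaf00108 (9898572 to 9912222) held 5 CENP-A and 4 CREST peaks, of which 3 of each overlapped. That on scaf00075 (12814134 to 12820189) held 2 of each and 1 overlap, of 1531 bp. On scaf00261 a single pair at 3569040 to 3572748 shared 3437 bp, the fourth highest value of all segments. A second segment there ran to the known end at 3588091.

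Scaf00170 stood apart by the arrangement of its peaks. Its segment from 13679 to 55537 was the longest of all, 41859 bp, with 6 CENP-A and 3 CREST peaks and 0 shared bp. The CREST peaks (971, 356 and 590 bp) lay in gaps between CENP-A peaks or before them, 1239, 2586 and 2171 bp from the nearest one. The CENP-A peaks there were 1147, 1046, 1304, 1163, 287 and 1326 bp wide. A second segment (70490 to 76405) shared 243 bp. A lone CREST peak of 1869 bp followed at 89542, the widest CREST peak outside any segment. This scaffold had the second highest number of CREST peaks (12), followed by scaf00001 (9) and scaf00255 (8).

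**Figure D2:**
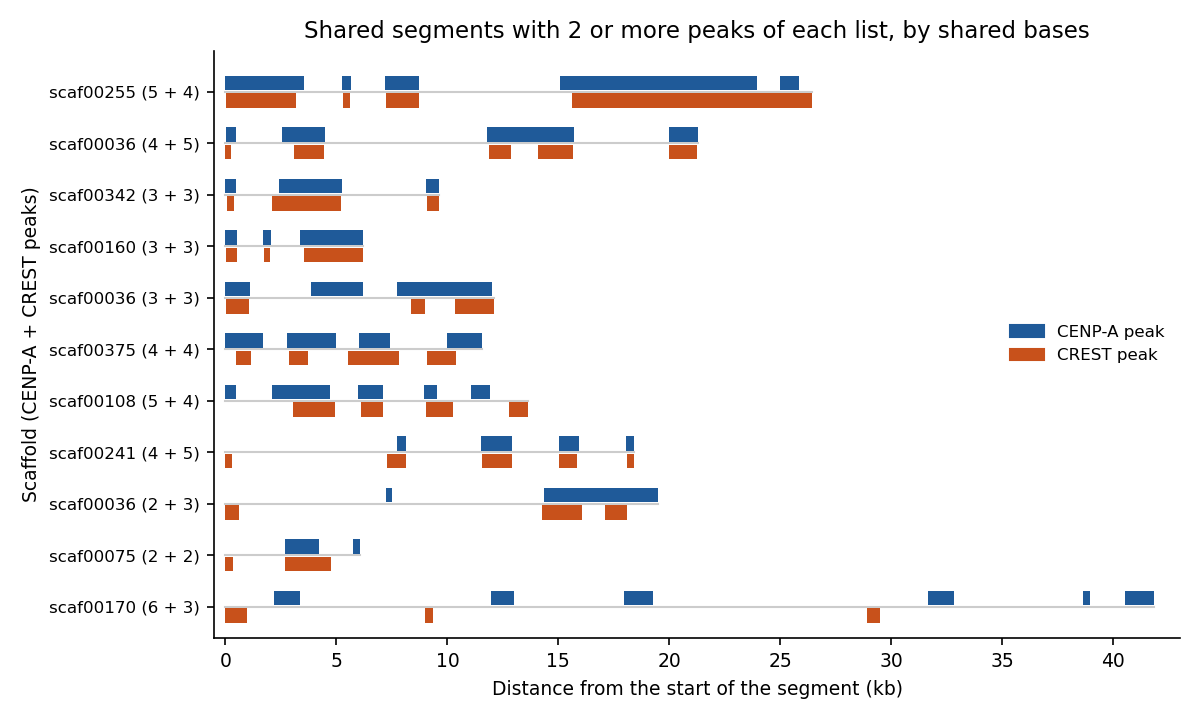
Each row is 1 of the 11 shared segments with at least 2 peaks of each list, ordered by shared bases from scaf00255 (14103 bp) to scaf00170 (0 bp), and the x axis gives the distance from the segment's start in kb. Blue bars above the line are CENP-A peaks, orange bars below it are CREST peaks, and the labels give the numbers of both. Bars face each other in most rows, while in the row of scaf00170 no blue bar faces an orange one.

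In 57 of the 65 overlapping pairs on these scaffolds neither peak touched a further peak of the other list, and in these one-to-one pairs the median offset was 38 bp between starts and 61 bp between ends. Both edges lay within 200 bp in 33 of the 57 (57.9%, Wilson interval 45.0 to 69.8%). This share was 19 of 26 (73.1%, 53.9 to 86.3%) in segments of 1 peak of each list and 13 of 25 (52%, 33.5 to 70.0%) in the larger segments. It was 1 of 6 (16.7%, 3.0 to 56.4%) in the segments with several peaks of one list only, where the median offset between ends was 391.5 bp. Those 3 intervals overlap. CENP-A covered more bases than CREST in 42 of the 57 pairs and fewer in 15. Within the larger segments neighbouring peaks of 1 list were separated by a median of 2011 bp (CENP-A, 30 gaps) and 2199.5 bp (CREST, 28 gaps).

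More shared segments lay near the known end of a scaffold than near its start. Of the 45, 17 lay within 100 kb of the known end, 5 within 100 kb of the scaffold start and 23 between. The 17 held 46843 shared bp, 63.7% of the total. Among the 11 larger segments, 8 ran to the known end itself, 2 were those of scaf00036 that ended 271608 and 303908 bp before it, and 1 was that of scaf00170, which began 13678 bp after the scaffold start. Of the 23 segments between, 20 were single pairs. The known end is set by the last peak, so closeness to it is in part a matter of definition, and how far these peaks lay from the true scaffold ends was not analysed here.

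A count that sets no distance from the known end is that of the first and the last peak in order along each scaffold. The choice of scaffolds still did not treat the sides alike, since a scaffold entered only if its last peak ended at 1 Mb or more. A scaffold with a shared segment at its start and no peak that far along was left out. This can favour shared segments at the last peak, so no conclusion about the sides is drawn from the count. The last peak lay in a shared segment on 15 of 31 scaffolds (48.4%, Wilson interval 32.0 to 65.2%) and the first on 7 (22.6%, 11.4 to 39.8%), intervals that overlap. A lone CREST peak was last on 6 scaffolds and first on 3. A lone CENP-A peak was last on 10 and first on 21. The last peak was wider than the first on 19 scaffolds and narrower on 11, with medians of 620 and 337 bp. Within 100 kb of the last peak there were 70 other peaks on 16 scaffolds, and within 100 kb of the first 31 on 12. With peaks of at least 500 bp only, the counts in shared segments were 12 (last) and 4 (first). On the 17 scaffolds of 100 kb to 1 Mb with peaks of both lists, the last peak lay in a shared segment on 13 and the first on 10. On the 60 scaffolds of at least 1 Mb without CREST peaks, 6 other peaks lay within 100 kb of the last and 8 within 100 kb of the first.

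**Figure D3:**
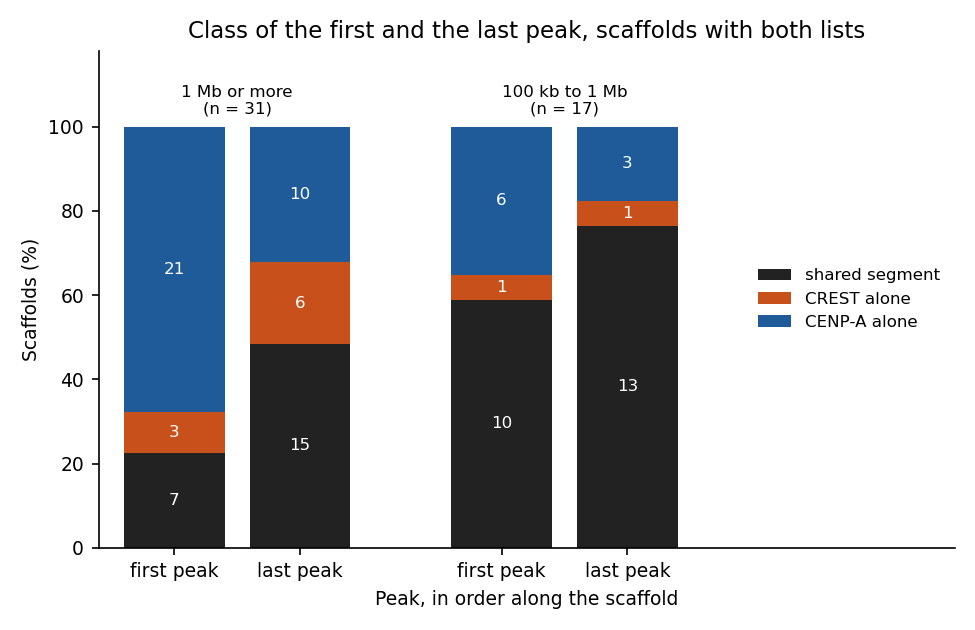
Bars give the percentage of scaffolds whose first or last peak lay in a shared segment (black), was a lone CREST peak (orange) or a lone CENP-A peak (blue), with the number of scaffolds in each part. The left pair shows the 31 scaffolds of at least 1 Mb and the right pair the 17 of 100 kb to 1 Mb with peaks of both lists. The black part is 15 of 31 for the last and 7 of 31 for the first peak on the long scaffolds.

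Peak density was high inside the segments. Beyond the 45 segments joined at 10 kb the intervals overlapped at all distances, but the contrast between near and far depended on how segments were defined. Inside the segments, which were defined by closely spaced peaks, there were 288 CENP-A and 270 CREST peaks per Mb. CENP-A density was 1.47 peaks per Mb up to 100 kb from the nearest segment edge (exact Poisson interval 0.670 to 2.78, 9 peaks). It was 1.42 from 100 kb to 1 Mb (1.09 to 1.82, 63 peaks), 1.57 from 1 to 10 Mb (1.40 to 1.76, 301 peaks) and 1.39 beyond 10 Mb (1.03 to 1.83, 50 peaks). CREST density over the same distances was 0.163 (1 peak), 0.294 (13 peaks), 0.214 (41 peaks) and 0.194 per Mb (7 peaks), with overlapping intervals. The density up to 100 kb was 0.949 times that beyond 1 Mb for CENP-A (interval 0.431 to 1.82) and 0.771 times for CREST (0.0191 to 4.51). The joining rule leaves the first 10 kb beside a segment without peaks, which lowers both ratios. With those 10 kb left out they were 1.07 (0.487 to 2.06) for CENP-A and 0.873 (0.0217 to 5.10) for CREST. These intervals are wide, so a moderate excess or deficit near the segments was not detectable. Other definitions turned both ratios above 1. For CREST the ratio was 3.14 (0.824 to 8.54) around segments with at least 1 overlapping pair, 10.6 (2.62 to 31.8) around those with at least 2 peaks of each list, 11.2 (2.71 to 35.2) for peaks of at least 500 bp and 6.98 (3.02 to 14.3) with joining at 1 kb. For CENP-A the same settings gave 1.54 (0.835 to 2.62), 3.14 (0.993 to 7.64), 1.88 (0.379 to 5.74) and 2.51 (1.57 to 3.82). In each of these settings some peaks from inside the 45 segments counted as flank, so these ratios are not those of lone peaks. Around the 23 segments that lay over 100 kb from both ends, CREST density was 0.497 per Mb from 100 kb to 1 Mb (0.278 to 0.820, 15 peaks) and 0.180 from 1 to 10 Mb (0.115 to 0.268, 24 peaks), intervals that do not overlap. However, the 15 peaks include CREST peaks inside other shared segments, near the known ends of scaf00036, scaf00342 and scaf00037. The contrast therefore does not show a fall of lone CREST peaks with distance.

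**Figure D4:**
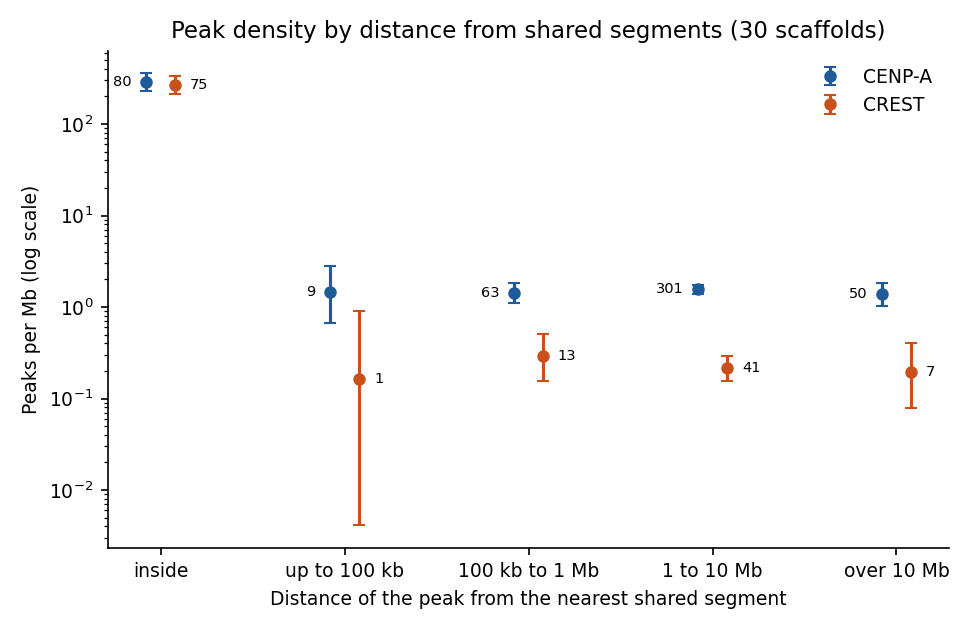
Points give CENP-A (blue) and CREST (orange) peaks per Mb of known extent on a log scale, inside shared segments and at 4 ranges of distance from them, for the 30 scaffolds with a segment. Bars are 95% exact Poisson intervals and the numbers beside the points are counts of peaks. Both lists drop from over 200 per Mb inside to 1.39 to 1.57 (CENP-A) and 0.163 to 0.294 (CREST) outside.

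By the joining rule no peak can lie within 10 kb of a segment edge. Densities were therefore also measured around clusters joined at 1 kb, of which there were 60 with both lists on 30 scaffolds. Any peak up to 10 kb from such a cluster is a member of a shared segment under the 10 kb rule. The densities up to 10 kb thus describe spacing inside the shared segments and not a flank beyond them. Around these, CENP-A density was 12.5 per Mb up to 10 kb (5.72 to 23.7, 9 peaks), 4.08 from 10 to 30 kb (1.32 to 9.52, 5 peaks) and 2.31 from 30 to 100 kb (1.05 to 4.38, 9 peaks). It was 1.33 from 100 kb to 1 Mb (0.997 to 1.73) and 1.57 beyond 1 Mb (1.41 to 1.74). CREST density was 5.56 per Mb up to 10 kb (1.51 to 14.2, 4 peaks), 2.45 from 10 to 30 kb (3 peaks), 0.513 from 30 to 100 kb (2 peaks), 0.295 from 100 kb to 1 Mb (12 peaks) and 0.220 beyond 1 Mb (51 peaks). Between 10 and 100 kb some counted peaks were also segment members, among them every counted CENP-A peak of scaf00170. The values between 10 and 100 kb rested in part on scaf00170. Without it CENP-A density was 1.69 per Mb from 10 to 30 kb (2 peaks) and 1.58 from 30 to 100 kb (6 peaks). CREST density was then 0.843 per Mb from 10 to 30 kb (1 peak, a segment member on scaf00036). From 30 to 100 kb 0 CREST peaks were left, and the interval reached 0.973 per Mb. Up to 10 kb the densities without it were 12.9 (CENP-A) and 4.29 peaks per Mb (CREST). In that range 3 of the 9 CENP-A peaks lay on scaf00036. Without scaf00036 the densities up to 10 kb were 9.40 for CENP-A (3.45 to 20.5, 6 peaks) and 6.27 for CREST (1.71 to 16.1, 4 peaks).

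Peaks inside shared segments were wider than the others, a contrast that the definition of the segments favours, since a wide peak meets another more easily. The median CENP-A width was 989.5 bp inside (rank interval 604 to 1320 bp) and 353.5 bp outside (335 to 384 bp). For CREST it was 878 bp inside (627 to 1081 bp) and 387 bp outside (320 to 624 bp). The larger segments had medians of 1163 bp (CENP-A) and 1005 bp (CREST), and the single pairs 689.5 and 548.5 bp. Peaks of at least 2000 bp were almost confined to segments, with 15 of 16 CENP-A and all 12 CREST peaks of that size among the members. The exception was a CENP-A peak of 2098 bp on scaf00033 (11856232 to 11858329), named after its value was seen. The 5 widest CENP-A peaks were the 8861 bp peak of scaf00255, 3 peaks of scaf00036 (5132, 4288 and 3914 bp) and the peak of 4320 bp that ended scaf00289 (2780480 to 2784799). The 5 widest CREST peaks, after the 10827 bp peak, measured 3450 bp on scaf00261, 3139 bp on scaf00255, 3107 bp on scaf00342 and 3040 bp on scaf00333.

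Outside the segments the intervals of the median widths overlapped at all distances. CENP-A medians were 569 bp up to 100 kb (9 peaks, interval 297 to 1032 bp), 358 bp from 100 kb to 1 Mb (325 to 535 bp), 358 bp from 1 to 10 Mb (336 to 394 bp) and 331 bp beyond 10 Mb (295 to 415 bp). CREST medians were 677 bp from 100 kb to 1 Mb (13 peaks, 305 to 1002 bp), 386 bp from 1 to 10 Mb (41 peaks, 304 to 693 bp) and 275 bp beyond 10 Mb (7 peaks, 257 to 535 bp). The single CREST peak within 100 kb was the 1869 bp peak of scaf00170. Across the peaks outside segments, Spearman's rho between width and distance was -0.14 for CENP-A (423 peaks) and -0.32 for CREST (62 peaks). These are descriptions across peaks that share scaffolds and libraries, not across replicates.

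**Figure D5:**
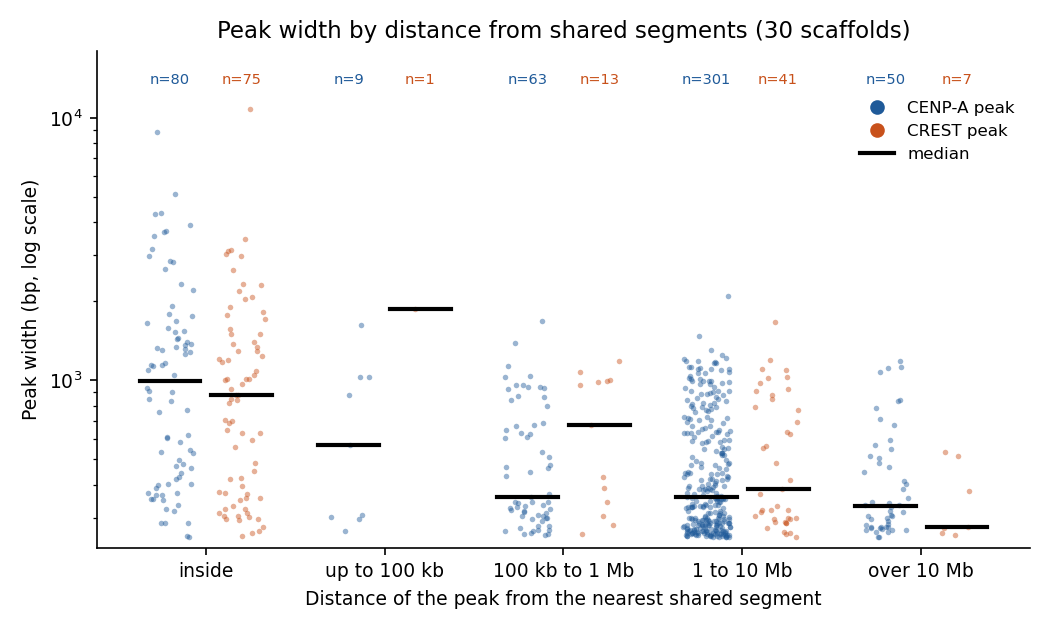
Each point is 1 peak, with its width in bp on a log scale, grouped by distance from the nearest shared segment, for CENP-A (blue) and CREST (orange) on the 30 scaffolds with a segment. Black lines are medians and n is the number of peaks. Points above 2000 bp are nearly all in the group inside segments, whose medians are 989.5 and 878 bp.

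The lists differed in how many peaks each scaffold held. CENP-A peaks numbered 2 to 71 per scaffold (median 12), or 0.747 to 4.51 per Mb (median 1.80). The most were on scaf00001 (71), scaf00033 (36), scaf00036 (33), and scaf00037 and scaf00060 (29 each). CREST peaks numbered 1 to 15 (median 4). Outside segments the 66 CREST peaks lay a median of 244 kb from the nearest CENP-A peak, and the 450 CENP-A peaks a median of 1.31 Mb from the nearest CREST peak. Such distances depend on the numbers of peaks in each list, and no expected values were computed. On 5 scaffolds every CREST peak was in a shared segment. Lone CREST peaks that were the last on their scaffold measured 304 to 1026 bp.

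CENP-A peaks outside the segments were set beside those on scaffolds of at least 1 Mb without CREST. The median width was 353.5 bp (335 to 384 bp) against 359 bp (344 to 382 bp) for the 1151 peaks of the 60 scaffolds without CREST. Density was 1.51 peaks per Mb (1.37 to 1.65) against 1.67 (1.58 to 1.77), intervals that overlap. A larger share of the peaks lay in shared segments on the 17 scaffolds of 100 kb to 1 Mb. There 74 of 96 CENP-A peaks (77.1%, 67.7 to 84.4%) and 76 of 82 CREST peaks (92.7%, 84.9 to 96.6%) lay in them, and 17 of 36 segments (47.2%, 32.0 to 63.0%) held at least 2 peaks of each list, against 11 of 45 (24.4%, 14.2 to 38.7%) on the long scaffolds. The largest values there were a segment of 49209 bp and 20026 shared bp. The limits on extent favour the larger shares on the shorter scaffolds. A shorter scaffold has less room for lone peaks, and one with a peak beyond 1 Mb counts as long. No conclusion is drawn from these shares. With 1 library per antibody none of the differences in this paragraph could be tested.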

How the data were processed

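Each antibody has 1 deposited list of broad peaks, in 3 columns (scaffold, start and end in bp on phaCin_unsw_v4.1, per the scaffold names). MACS2 2.0.10.20131216, Bowtie2 and Trimmomatic 0.36 were used by the authors, per the submitters' processing notes. The peak threshold, the handling of multi-mapping reads and the role of input were not stated in the labels or notes. Placement of repeat reads can change the number and width of peaks. The lists analysed here hold no height or p-value. Starts were read as counting from 0 and are printed counting from 1.

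Peaks overlapped when they shared at least 1 bp, and peaks at most 10 kb apart were joined. Distances run from a peak's midpoint to the nearest segment edge. Shares carry Wilson, medians rank, and densities exact Poisson intervals, and the ratio of densities an exact conditional one. Python 3.11.15 with numpy 2.4.6, pandas 2.3.3, scipy 1.17.1 and matplotlib 3.10.9 was used. The finding of segments, the overlaps of CREST peaks and the bases per range of distance were tested on simulated data. The other steps were not. The scaffolds, the segment rule and the rule for named regions were chosen with earlier results of these data known. That rule took segments with at least 2 peaks of each list, the 5 with the most shared bases, the 5 scaffolds with the most peaks, the 5 widest peaks of each list and scaffolds without a segment. No genome sequence or gene annotation of this assembly was used here.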

Additional observations from a re-analysis of the deposited data

How the results depend on the processing

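No paired analysis was possible because each antibody had 1 library, and no replicate could be left out. For 14 results, 76 of 96 values under other settings stayed within 1.5 times (counts and lengths) or inside the interval (shares and ratios). The intervals of the density ratios are so wide that staying inside them says little about stability. Segments that need 1 bp of overlap gave ratios of 1.54 for CENP-A, against 0.949, and of 3.14 for CREST, against 0.771. Leaving out scaf00036, the extent limit of 2 Mb and both other overlap rules moved no value beyond these limits. With peaks of at least 500 bp only, there were 27 shared segments with 22.8% of CENP-A peaks, 18.9% of CENP-A peaks overlapped, the first peak was in a segment on 4 scaffolds, and density up to 100 kb was 1.88 (CENP-A) and 11.2 times (CREST) that beyond 1 Mb. Joining at 1 kb gave 108483 bp of segments with 11.9% of CENP-A peaks, 2 with at least 2 peaks of each list, and density ratios of 2.51 and 6.98, since peaks of the larger segments then count as flank. Joining at 50 kb gave 579312 bp and a segment on all 31 scaffolds, scaf00022 included. Requiring 2 peaks of each list left 11 segments on 9 scaffolds with 7.74% of CENP-A and 27.7% of CREST peaks, last peaks in a segment on 8 and first peaks on 2 scaffolds, and density ratios of 3.14 and 10.6. The 4 CREST peaks behind the last value lay on scaf00170 (3) and scaf00036 (1). All but the 1869 bp peak of scaf00170 lay inside shared segments that this setting dropped, and so counted as flank. The width contrast kept its direction in every setting tried, but for CREST its size was uncertain. The CREST median inside was 2.27 times that outside (1.00 to 3.38). The lower limit of this ratio fell to 0.798 with the extent limit of 2 Mb and to 0.931 with joining at 50 kb. It was 0.929 where 2 peaks of each list were required and 0.710 without scaf00036. The results on first and last peaks, the larger segments and the clusters joined at 1 kb by distance were added after the data had been seen.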

Other observations

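Lone peaks of both antibodies gathered at the narrow end of the width range. Of the 450 CENP-A peaks outside shared segments, 222 (49.3%) were from 250 to under 350 bp wide, and of the 66 CREST peaks 30 (45.5%) were. On the 60 long scaffolds without CREST the share was 48.0% (553 of 1151). Inside shared segments 8 of 80 CENP-A peaks (10%) fell in that range and 32 (40%) were at least 1300 bp wide. The narrowest peaks on these scaffolds measured 253 bp (CENP-A) and 254 bp (CREST), so the lower edge of this range is close to the smallest peaks there.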
